A study of Macaca mulatta with 8 samples.

Results

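Glycolysis turns glucose into pyruvate, and lactate dehydrogenase then converts pyruvate and lactate into each other. Photoreceptors are known for using glucose heavily and releasing lactate even when oxygen is present, and Müller glia, the radial support cells of the retina, and the retinal pigment epithelium exchange glucose and lactate with them through membrane transporters. The genes described here were fixed by name: the hexokinases HK1 and HK2, the phosphofructokinases PFKL and PFKM, the pyruvate kinase PKM, the enolase ENO1, the lactate dehydrogenase subunits LDHA and LDHB, the glucose transporter SLC2A1 and the lactate and pyruvate transporter SLC16A1. Of these 10 genes, 9 were found by symbol among 26533 features, and PKM was not analysed here.

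Single-cell RNA was sequenced from retinal punches of 2 male rhesus macaques, NHP1 (5 years) and NHP2 (6 years). In NHP2 the areas were an uninjected area, a bleb of AAV8-GRK1-hRPGR, which carries a codon-optimised human RPGR, and a bleb of the reporter AAV8-GRK1-mScarlet. GRK1 is a photoreceptor promoter, so both vectors are driven in rods and cones. From NHP1, whose eyes had received AAV2-CAG-hRPE65, only uninjected areas are described. Each of the 4 groups held 1 right-eye and 1 left-eye library, all eyes had been given a steroid, and the left eyes had also been given adalimumab, an antibody against TNF. The 3 areas of NHP2 therefore came from the same pair of eyes of 1 animal, each bleb effect rests on 2 libraries against 2, and p-values measure only the spread between these libraries.

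The 8 libraries held 9562 to 15080 cells that passed the cell filter, with a median of 4606 to 6036 UMIs (transcript molecules) per cell. Clusters were named from marker genes into 10 classes, from 35607 rod-like cells in all to 193 RPE-like cells, and a class was given a level in a library only with at least 20 cells. Between 10.7% and 49.4% of the cells of a library stayed in unnamed clusters, and those with rod markers made up 5.64% and 8.52% of the cells in the mScarlet blebs against 23.2% to 42.6% in the other libraries. Levels are UMIs per 1000000 UMIs (CPM) of a class in a library, without 2 abundant features that have no gene symbol. Free RNA, measured in barcodes too small to be cells, held every gene of the set, from 52.8 to 90.8 CPM for SLC2A1 up to 233 to 697 CPM for LDHB. Of the libraries labelled uninjected, the right eye of NHP2 held 182 CPM of the codon-optimised RPGR transgene in its rod-like cells and the left eye of NHP1 held 735 CPM of the human RPE65 transgene, against 0 and 0.0511 CPM in the other eye.

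LDHA and SLC16A1 were the genes of the set with an edgeR call in a bleb contrast described further on, though neither was called in rods. The 250 bases before the start of each gene are therefore shown (RefSeq, Mmul_10, sense strand, 5′ to 3′). Capitals mark ACGTG or GCGTG on either strand, the core letters of the hypoxia response element, and a match on both strands at the same place was counted on each strand. LDHA lies on the minus strand of chromosome 14 from 47176916 to 47189970, and SLC16A1 on the plus strand of chromosome 1 from 111271542 to 111314684.
LDHA, chr14:47189971-47190220: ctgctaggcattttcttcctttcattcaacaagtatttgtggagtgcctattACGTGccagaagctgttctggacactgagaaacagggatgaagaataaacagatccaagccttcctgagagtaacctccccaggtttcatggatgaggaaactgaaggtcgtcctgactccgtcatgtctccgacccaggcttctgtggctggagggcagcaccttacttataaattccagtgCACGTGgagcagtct
SLC16A1, chr1:111271292-111271541: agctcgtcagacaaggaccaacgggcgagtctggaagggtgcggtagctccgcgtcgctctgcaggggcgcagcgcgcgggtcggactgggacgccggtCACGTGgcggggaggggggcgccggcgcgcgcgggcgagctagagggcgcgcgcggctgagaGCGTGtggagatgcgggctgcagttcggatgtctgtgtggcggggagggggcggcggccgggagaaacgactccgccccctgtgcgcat
Both windows held 3 matches. Of the 9 genes, 4 had a match in this window, as did 46% of 20782 promoters of protein-coding genes of the same length. The windows of PDK1 and EGLN1, genes of the pathway lists described further on, each held 0 matches.

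Each gene had its own distribution over the retina. The order of classes is a description with no test, since the classes came from clustering, although the 9 genes were left out of the genes used to cluster. HK1, the broadly expressed hexokinase, was highest in horizontal-like cells at 898 CPM ± 113 (SD, n = 8 libraries), and its lowest library there was above every other class. Cone-like cells followed at 292 CPM ± 10.7 and rod-like cells at 248 CPM ± 43.3, and cones were above rods in 7 of 8 libraries. Müller glia-like cells had the lowest mean at 55.6 CPM ± 17.5. HK2, the inducible hexokinase, was instead highest in rod-like cells at 226 CPM ± 68.2 and in myeloid-like cells at 187 CPM ± 75.6, which did not differ beyond their spread. Rods exceeded cones (117 CPM ± 31.6) for HK2 in all 8 libraries, and every class other than these 3 had a mean under 36 CPM.

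PFKL and PFKM encode the liver and muscle forms of phosphofructokinase, which commits sugar to glycolysis. PFKL was highest in ganglion-like cells (145 CPM ± 33.6, n = 6) and rod-like cells (145 CPM ± 11.5, n = 8), whose ranges overlapped, and rods were above cones (104 CPM ± 9.70) in 8 of 8 libraries without overlap. PFKM had another order, from 245 CPM ± 21.8 in ganglion-like cells through 188 CPM ± 23.6 in horizontal-like and 166 CPM ± 19.1 in Müller glia-like cells to 17.7 CPM ± 6.93 in myeloid-like cells. Cones were above rods for PFKM in 7 of 8 libraries, at 113 CPM ± 13.1 against 95.2 CPM ± 16.2.

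ENO1, the broadly expressed enolase, was highest in Müller glia-like cells. It reached 3965 CPM ± 627 there, between 2990 and 5016 CPM, against 1032 CPM ± 210 in ganglion-like cells and 832 CPM ± 152 in horizontal-like cells. Rod-like cells (147 CPM ± 16.2) and cone-like cells (143 CPM ± 23.9) were lowest and did not differ beyond their spread. ENO1 free RNA lay between 267 and 574 CPM, above both photoreceptor levels.

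SLC2A1, the glucose transporter GLUT1, and SLC16A1, the monocarboxylate transporter MCT1, both had their highest mean in RPE-like cells. SLC2A1 stood at 799 CPM ± 172 in RPE-like cells (n = 3 libraries) and at 662 CPM ± 124 in Müller glia-like cells. Their ranges overlapped, and RPE-like cells were the higher in 2 of 3 libraries. Cone-like cells had 157 CPM ± 17.6 of SLC2A1 and rod-like cells 56.8 CPM ± 6.30, with cones above rods in 8 of 8 libraries. SLC16A1 reached 609 CPM ± 181 in RPE-like cells. Müller glia-like (194 CPM ± 59.3), rod-like (179 CPM ± 31.9) and cone-like cells (170 CPM ± 24.9) followed at levels that did not differ beyond their spread, and the remaining classes had means of 36.3 CPM or less.

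LDHA, the lactate dehydrogenase subunit linked with making lactate, had its highest mean over all libraries in rod-like cells, at 552 CPM ± 110. Rods were above cones (172 CPM ± 37.9) in 8 of 8 libraries. Ganglion-like cells followed at 499 CPM ± 165, within the spread of the rods, and rods were above them in 4 of 6 libraries. In the uninjected areas of NHP2 the ganglion-like mean was the higher, at 648 CPM against 427 CPM in rods. Rod means were 560 CPM in the hRPGR blebs and 696 CPM in the mScarlet blebs. LDHB, the subunit linked with using lactate, was highest in ganglion-like cells at 701 CPM ± 115 and lowest in myeloid-like cells at 117 CPM ± 50.9. The balance of the 2 subunits shifted between classes: LDHA made up 70.7% ± 8.83 of LDHA plus LDHB UMIs in myeloid-like cells, 61.7% ± 8.40 in rod-like cells, 41.6% ± 6.91 in cone-like cells, 33.7% ± 3.27 in Müller glia-like cells and 21.7% ± 4.73 in RPE-like cells. The rod share differed by area, at 50.4% to 58.9% in the 4 uninjected libraries and 64.9% to 72.2% in the 4 blebs. T/NK-like cells were split likewise, at 41.8% to 48.2% in the uninjected libraries with a level (24 to 47 cells) and 55.1% to 61.5% in the blebs. Myeloid-like cells had 79.5% and 79.9% in the mScarlet blebs and 53.3% to 76.7% in the other libraries. In the remaining classes the uninjected and bleb ranges overlapped. The rod share was above that of cones in 7 of 8 libraries, the right NHP1 library having 51.8% in cones and 50.4% in rods. HK2 likewise made up 59.5% ± 13.3 of HK1 plus HK2 UMIs in myeloid-like cells and 47.1% ± 6.64 in rod-like cells, against 28.3% ± 5.22 in cone-like and 3.86% ± 2.16 in horizontal-like cells.

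**Figure D1:**
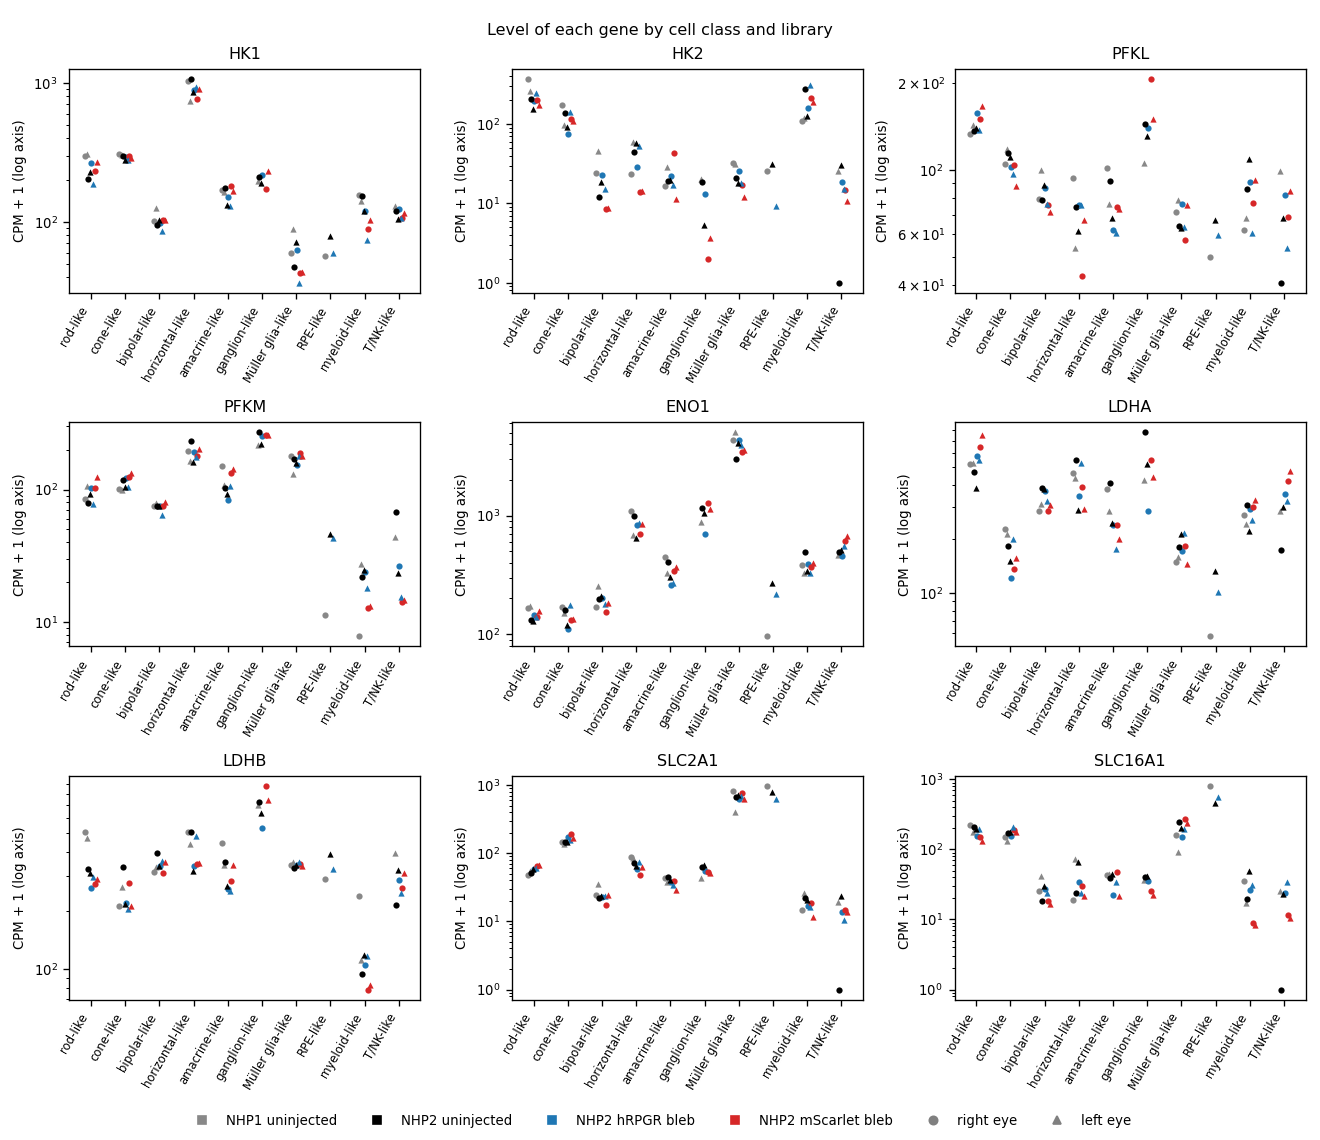
Level of each of the 9 genes by cell class, as CPM + 1 on a log axis, with 1 point per library of at least 20 cells; colours are groups and symbols eyes. HK1 peaks in horizontal-like cells, ENO1 in Müller glia-like cells and SLC16A1 in RPE-like cells, while SLC2A1 is high in both RPE-like and Müller glia-like cells.

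**Figure D2:**
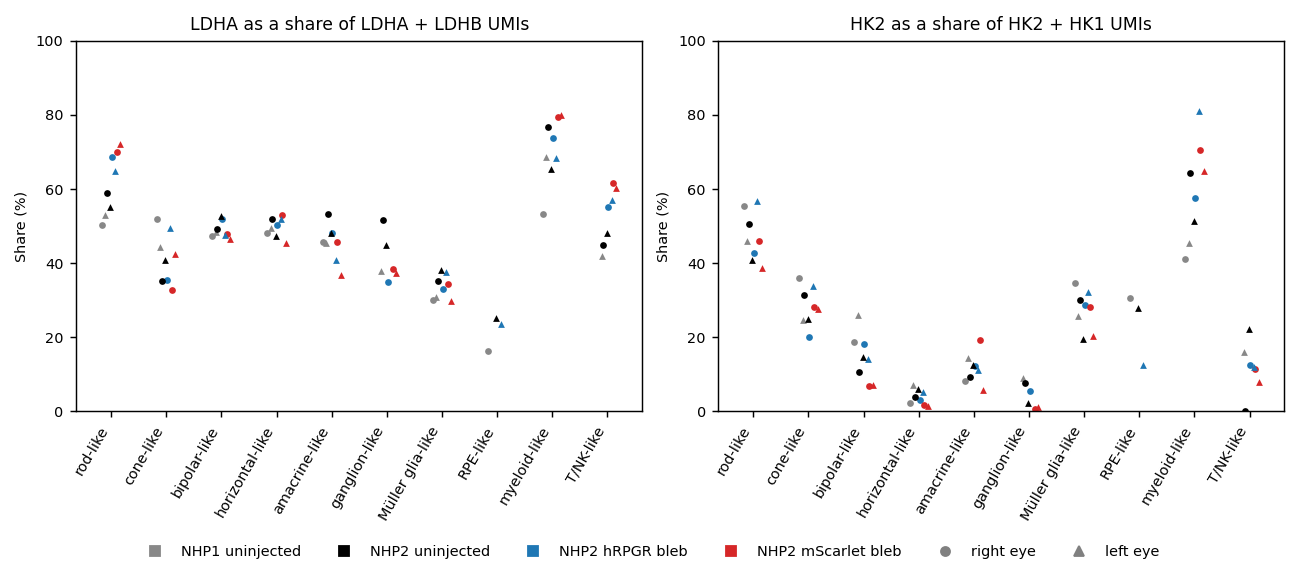
LDHA as a percent of LDHA plus LDHB UMIs, and HK2 as a percent of HK1 plus HK2 UMIs, by cell class with 1 point per library. The mean LDHA share runs from 21.7% in RPE-like to 70.7% in myeloid-like cells.

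LDHB varied within the cones. In the cone-like cluster led by OPN1SW, the short-wavelength opsin (165 cells), LDHB was 373 and 420 CPM in the right and left eye of NHP1. In NHP2 it was 866 and 722 CPM in the uninjected areas, 857 and 761 CPM in the hRPGR blebs and 893 CPM in the right mScarlet bleb, and the left mScarlet bleb held no cell of this cluster. The other cone-like cells had 173 to 290 CPM in the 8 libraries. LDHB was thus higher in the OPN1SW-led cluster in all 7 libraries that held it, with 9 to 33 cells each. Another cone-like cluster (536 cells), led by KCNB2, had 122 CPM of LDHB. Its median mitochondrial share of UMIs was 0.11%, against 1.5% in the OPN1SW-led cluster. The share was 0.65% and 1.74% in cone-like clusters 13 and 14, led by ARR3 and PDE6H. The part of this difference in the LDHB values was not tested.

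The first question between areas was whether either vector moved these genes in the photoreceptors it targets. In rod-like cells no gene of the set passed edgeR's adjusted threshold between the mScarlet bleb and the uninjected area, where 1.94% of 14407 genes were called, and 2 of 9 had an unadjusted p under 0.05 against 24.3% of all genes. Those 2 were LDHA and SLC16A1. DESeq2 called both, beside 10.5% of all genes, and with the eye as a replicate block edgeR called 0 of 9 beside 0.0417% of all genes (6 of 14407). LDHA in rods was 470 and 384 CPM in the right and left uninjected area, 575 and 545 CPM in the hRPGR blebs, and 642 and 751 CPM in the mScarlet blebs. Both mScarlet libraries lay above both hRPGR libraries, and these above both uninjected ones. The log2 fold change, mScarlet bleb minus uninjected area, was 0.59 (SE 0.157; edgeR adjusted p = 0.0889; DESeq2 adjusted p = 0.00284), and 0.81 without the right uninjected library (edgeR adjusted p = 0.176).

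SLC16A1 in rods ran the other way. It was 209 and 197 CPM in the uninjected areas, 155 and 194 CPM in the hRPGR blebs, and 152 and 130 CPM in the mScarlet blebs. The mScarlet libraries did not overlap with any other NHP2 library, and the log2 fold change was -0.63 (SE 0.164; edgeR adjusted p = 0.0862; DESeq2 adjusted p = 0.00571), or -0.53 without the right uninjected library (edgeR adjusted p = 0.287). Rod-like cells fell into different clusters by area. The libraries were clustered together with no correction between them, so a difference between areas or libraries can itself split the clusters. Cluster 12 (404 CPM of LDHA) was the largest in the right and left uninjected area, with 35.3% and 66.5% of the rod-like cells. The largest in the right mScarlet bleb was cluster 20 (560 CPM) with 29.4%, and in the left mScarlet bleb cluster 52 (949 CPM) with 32.8%. In the right and left hRPGR bleb they were clusters 33 and 12, with 33.8% and 29.6%. The median mitochondrial share of UMIs was 0.84% in cluster 12, 0.72% in cluster 20 and 0.12% in cluster 52. Unnamed clusters 8 and 31, with rod markers, had 0.11% and 0.15%. They held 745 and 1209 cells of the right and 2940 and 849 of the left uninjected area. In the unnamed clusters with rod markers, LDHA was lower in the mScarlet blebs (148 and 168 CPM) than in the uninjected areas (394 and 222 CPM). With those clusters counted as rods the LDHA log2 fold change was 0.67 (edgeR adjusted p = 0.385) and that of SLC16A1 was -0.70 (edgeR adjusted p = 0.243). The part of cluster makeup in these values was not tested.

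Around the set in rods, PDK1, the kinase that shuts off pyruvate dehydrogenase, rose and EGLN1, the prolyl hydroxylase that marks hypoxia-inducible factors for breakdown, fell. PDK1 was 10.4 and 10.4 CPM in the uninjected areas and 17.7 and 19.2 CPM in the mScarlet blebs (log2 fold change 0.72, SE 0.110; edgeR adjusted p = 0.0381). EGLN1 was 52.0 and 68.1 CPM in the uninjected areas and 38.8 and 40.1 CPM in the mScarlet blebs (log2 fold change -0.71, SE 0.119; edgeR adjusted p = 0.0456). Without the right uninjected library PDK1 was at 0.78 (edgeR adjusted p = 0.15) and EGLN1 at -0.84 (edgeR adjusted p = 0.109). Both calls were also lost without the left uninjected, right mScarlet or left mScarlet library (adjusted p of 0.139 to 0.364), with the eye as a replicate block (0.114 for PDK1 and 0.0864 for EGLN1), and with the unnamed rod-marker clusters counted as rods (0.373 and 0.251). Of the other glycolysis enzymes 0 of 16 tested were called by edgeR, against 1.94% of all genes, and 2 had an unadjusted p under 0.05, against 24.3%. Their median log2 fold change was 0.20 beside 0.0039 over all genes. GAPDH (2778 CPM ± 252), ENO2 (2333 CPM ± 312) and ALDOA (1011 CPM ± 84.5) were the highest of that list in rods over the 8 libraries. DESeq2 called 1 of these 16, TPI1, which interconverts the triose phosphates and is named here after its value was seen. Of the transport list edgeR called 0 of 10, with 3 at an unadjusted p under 0.05 against 24.3% of all genes. DESeq2 called 2 of these 10, and its share over all genes, for both lists, is given above. Of the genes for pyruvate entry into mitochondria 1 of 13 rose, against 1.34% of all genes, and of the regulators 1 of 12 fell, against 0.597% of all genes.

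In cone-like cells 0 of 9 genes passed in the mScarlet bleb (1.47% of 11444 genes called), and 1, PFKL, had an unadjusted p under 0.05 against 16.7% of all genes (log2 fold change -0.29, SE 0.126; edgeR adjusted p = 0.297; -0.25 without the right uninjected library, edgeR adjusted p = 0.543). DESeq2 called none either. SLC16A1 in cones was 171 and 176 CPM in the uninjected areas, 155 and 211 CPM in the hRPGR blebs and 190 and 178 CPM in the mScarlet blebs. Outside the OPN1SW-led cluster it was 176 and 177.6 CPM in the right and left uninjected area. In the right and left mScarlet bleb it was then 196 and 177.5 CPM. Cone-like cells leave out unnamed cluster 59, which had cone markers and held 87 cells, all from the right mScarlet bleb. They also leave out unnamed cluster 15, with 84 of its 94 cells from the right hRPGR bleb. The change in cones minus that in rods, tested as an interaction, was 0.67 for SLC16A1 (SE 0.126; edgeR adjusted p = 0.0416), the 1 gene of 9 called beside 1.21% of 13905 genes, and 3 of 9 had an unadjusted p under 0.05 beside 16.9%. Without the right uninjected library it was 0.54 and no longer called (edgeR adjusted p = 0.123), and the call was also lost without the right mScarlet (0.140) or the left mScarlet library (0.331). The other 2 genes were LDHA (-0.83, SE 0.2, edgeR adjusted p = 0.0751) and PFKL (-0.36, SE 0.145, edgeR adjusted p = 0.252), at -0.91 (0.0890) and -0.38 (0.397) without the right uninjected library.

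In bipolar-like cells, the neurons that read out the photoreceptors, 0 of 9 genes passed in the mScarlet bleb by edgeR or DESeq2 (0.803% of 12954 genes called), and 4 had an unadjusted p under 0.05, all lower, against 11.4% of all genes in either direction and 5.15% lower. LDHA was 384 and 378 CPM in the uninjected areas, 368 and 324 CPM in the hRPGR blebs and 286 and 308 CPM in the mScarlet blebs, and the mScarlet libraries were below the other 4 (log2 fold change -0.37, SE 0.104; edgeR adjusted p = 0.211). HK2 was low, at 11.2 and 17.8 CPM in the uninjected areas and 7.40 and 7.87 CPM in the mScarlet blebs (log2 fold change -0.93, SE 0.288, edgeR adjusted p = 0.250). These were 54 and 92 UMIs in the uninjected areas, of which 32.0 and 54.1 were estimated as free RNA, and 37 and 51 UMIs in the mScarlet blebs beside an estimate of 41.3 and 48.1. HK2 in the bipolar cells of the mScarlet blebs therefore could not be told from free RNA. The other 2 genes were SLC16A1 (-0.50, SE 0.222, edgeR adjusted p = 0.427) and ENO1 (-0.27, SE 0.113, edgeR adjusted p = 0.412). Without the right uninjected library the bipolar fold changes were -0.36 for LDHA (edgeR adjusted p = 0.349), -1.23 for HK2 (0.122), -0.82 for SLC16A1 (0.107) and -0.31 for ENO1 (0.507). The LDHA change in bipolar cells minus that in rods was -0.99 (SE 0.176; edgeR adjusted p = 0.0353), the 1 gene of 9 called beside 1.84% of 15286 genes, and 3 of 9 had an unadjusted p under 0.05 beside 18.2%. It was -1.19 and still called without the right uninjected library (adjusted p = 0.0497), but not called without the left uninjected (0.134), right mScarlet (0.181) or left mScarlet library (0.370). The other 2 genes were ENO1 (-0.37, SE 0.137; edgeR adjusted p = 0.196) and PFKM (-0.29, SE 0.114, edgeR adjusted p = 0.220), at -0.50 (0.224) and -0.24 (0.529) without the right uninjected library. Free RNA held 75.3 to 152 CPM of SLC16A1 and 267 to 574 CPM of ENO1 over the 8 libraries. These levels were above the bipolar means of 24.4 CPM for SLC16A1 and 193 CPM for ENO1. Summed rod markers in bipolar-like cells were 1873 and 2075 CPM in the mScarlet blebs and 2689 to 4428 CPM in the other NHP2 libraries. Their part in the LDHA, HK2, SLC16A1 and ENO1 values was not tested.

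Müller glia-like cells gave 0 of 9 calls in the mScarlet bleb by edgeR and DESeq2 (0.301% of 12966 genes called), and 0 of 9 had an unadjusted p under 0.05 against 14.6% of all genes. SLC16A1 was 247 and 200 CPM in the uninjected areas, 151 and 193 CPM in the hRPGR blebs and 272 and 236 CPM in the mScarlet blebs. The mScarlet against hRPGR difference was 0.52 on the log2 scale (SE 0.177; edgeR adjusted p = 0.378). HK2 was 24.8 and 16.8 CPM in the hRPGR blebs and 16.3 and 10.9 CPM in the mScarlet blebs (log2 fold change -0.65, SE 0.268; edgeR adjusted p = 0.455). These HK2 sums were close to the free RNA estimated in them: 117 and 82 UMIs in the hRPGR blebs beside an estimate of 147 and 76.2, and 75 and 52 UMIs in the mScarlet blebs beside 77.3 and 54.9, so HK2 in Müller glia could not be told from free RNA there. The libraries differed in the clusters that held their Müller glia-like cells. Clusters 18 and 27 held 342 and 365 cells of the right mScarlet bleb, 500 and 401 of the left, and 473 and 296 of the right hRPGR bleb. The left hRPGR bleb had 230 and 129 cells there, and 436 and 222 in clusters 17 and 26, to which the other 3 bleb libraries gave at most 14 cells each. SLC16A1 over all libraries was 90.8 CPM in cluster 18 and 264 CPM in cluster 27, against 107 and 188 CPM in clusters 17 and 26, and the part of cluster makeup in these values was not tested. As an interaction, SLC16A1 in Müller glia minus rods was 0.77 (SE 0.158; edgeR adjusted p = 0.118) and 0.86 without the right uninjected library (edgeR adjusted p = 0.129). DESeq2 called it (adjusted p = 0.000825), beside 1.47% of all genes, with 0 of 9 genes called by edgeR beside 0.242% of 15292 and 3 of 9 at an unadjusted p under 0.05 beside 12.7%. The other 2 were LDHA (-0.92, SE 0.281, edgeR adjusted p = 0.252) and HK1 (-0.62, SE 0.217, edgeR adjusted p = 0.306), at -1.20 (0.154) and -0.85 (0.163) without the right uninjected library.

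**Figure D3:**
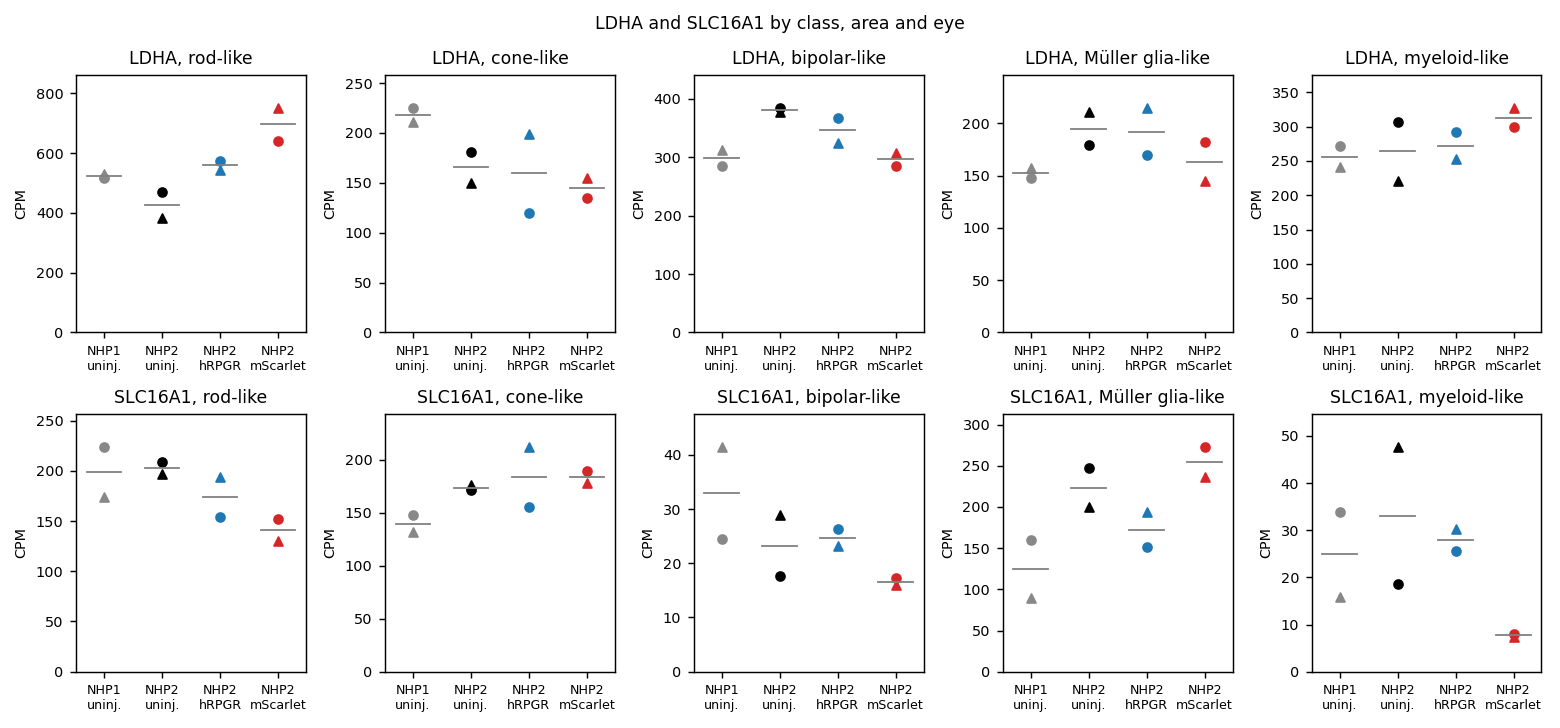
LDHA (top) and SLC16A1 (bottom) in CPM by group in 5 classes; circles are right eyes, triangles left eyes and grey lines group means. LDHA in rod-like cells is 642 and 751 CPM in the mScarlet blebs against 470 and 384 CPM in the uninjected areas, while in bipolar-like cells it is lower in the mScarlet blebs.

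In the hRPGR bleb, no gene of the set was called by edgeR or DESeq2 in any of the 5 classes, and 0 of 9 had an unadjusted p under 0.05 in each. The share of all genes called was 0% in rods, 0.0175% in cones, 0.0154% in bipolar cells, 0.00771% in Müller glia and 0.00932% in myeloid cells, and the share at an unadjusted p under 0.05 was 5.43%, 6.41%, 3.43%, 3.61% and 6.47% in the same order. The hRPGR effect in cones, bipolar cells or Müller glia minus that in rods gave 0 of 9 calls by edgeR and DESeq2 (0.0935%, 0% and 0% of genes called). At an unadjusted p under 0.05 there were 1, 1 and 0 of 9 genes, against 6.82%, 5.06% and 2.96% of all genes. They were SLC16A1 in cones (0.37, SE 0.126; edgeR adjusted p = 0.616) and LDHA in bipolar cells (-0.46, SE 0.176; edgeR adjusted p = 0.945), at 0.24 (0.876) and -0.66 (1.00) without the right uninjected library. LDHA in rods was higher in both hRPGR libraries than in both uninjected ones, as given above, but the difference did not pass. The right uninjected area, 1 of the 2 libraries compared against, held 182 CPM of this same transgene in its rod-like cells. The uninjected side of these contrasts was therefore not free of the vector under test.

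Myeloid-like cells, the microglia and macrophages of the samples, numbered 83 and 81 in the uninjected areas, 394 and 142 (right and left) where hRPGR had been given, and 484 and 424 where mScarlet had been given. SLC16A1 was the 1 gene of 9 that passed there in the mScarlet bleb against the uninjected area (3.18% of 10734 genes called, 1.17% higher and 2% lower), and 2 of 9 had an unadjusted p under 0.05 against 18.3%. DESeq2 called it too. It stood at 18.7 and 47.6 CPM in the uninjected areas (9 and 22 UMIs), 25.5 and 30.3 CPM in the hRPGR blebs (56 and 30 UMIs), and 8.04 and 7.39 CPM in the mScarlet blebs (30 and 33 UMIs). Both mScarlet libraries were below the other 4. The log2 fold change was -2.03 (SE 0.417; edgeR adjusted p = 0.0374) against the uninjected area and -1.71 (SE 0.343; edgeR adjusted p = 0.0440) against the hRPGR bleb, where 1.89% of genes were called (0.345% higher, 1.55% lower) and 2 of 9 had an unadjusted p under 0.05 against 13.6%. The second gene in both contrasts was PFKM, at 20.8 and 23.8 CPM in the uninjected areas, 22.8 and 17.2 CPM in the hRPGR blebs and 11.8 and 12.1 CPM in the mScarlet blebs. Its log2 fold change was -0.84 against the uninjected area (SE 0.331; edgeR adjusted p = 0.220; -0.87 without the right uninjected library, edgeR adjusted p = 0.352) and -0.65 against the hRPGR bleb (SE 0.258; edgeR adjusted p = 0.295). By the same estimate of free RNA that is given below, these PFKM sums held at most 2 UMIs beyond it, other than the right mScarlet bleb with 19. Myeloid-like cells of every library lay in clusters 45 and 34, with 57.4% to 61.3% of them in cluster 45 in the right libraries and 50% to 55.6% in cluster 34 in the left ones.

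Rod transcripts moved the same way in these myeloid sums. The summed level of the 11 rod markers, all detected, was 2074 and 2422 CPM in the mScarlet blebs and 6800 to 11320 CPM in the other NHP2 libraries, and SLC16A1 in free RNA was 75.3 to 152 CPM. The share of free RNA in a sum was estimated from 4 rod genes. By that estimate free RNA gave 29.5 and 36.1 SLC16A1 UMIs in the right and left mScarlet bleb, where 30 and 33 were counted. It gave 14 and 10.2 in the uninjected areas (9 and 22 counted) and 39.3 and 29.6 in the hRPGR blebs (56 and 30 counted). Both mScarlet sums, the right uninjected and the left hRPGR sum were at 0 UMIs after subtraction, the left uninjected at 12 and the right hRPGR at 17, so the SLC16A1 level in the mScarlet blebs could not be told from free RNA. The fitted fold changes were then -7.83 against the uninjected area (edgeR adjusted p = 0.399) and -6.23 against the hRPGR bleb (edgeR adjusted p = 1), which rest on sums at 0 and are no bound. Neither was called, and 0 of 9723 genes were called in either contrast. Leaving out the left uninjected library brought the first fold change to -1.24 (adjusted p = 0.247), while leaving out the right one gave -2.50 (adjusted p = 0.0374). The call was also lost without either mScarlet or either hRPGR library, with doublets kept, or with at least 3000 UMIs per cell.

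Other genes of the pathway lists passed in myeloid-like cells, in the same sums in which rod markers were lower in the mScarlet blebs. ENO2, the neuronal enolase, and ALDOC, the brain aldolase, fell in the mScarlet bleb (log2 fold changes -1.77, SE 0.248, and -1.39, SE 0.250; edgeR adjusted p = 0.0122 and 0.0238), 2 of 12 tested enzymes of the list. ENO2 stood at 2333 CPM in rods, as given above, and the part of rod transcripts in these values was not tested. With free RNA subtracted, ENO2 fell below the filter on low counts and ALDOC was at -0.53 (edgeR adjusted p = 0.958). Without the right uninjected library ENO2 was at -1.44 (edgeR adjusted p = 0.0381) and ALDOC at -1.15 (edgeR adjusted p = 0.123). DESeq2 called 1 of these 12 higher and 2 lower, beside 4.77% of all genes in either direction. By edgeR, which called 3.18% of all genes, 1 of 13 regulators and 0 of 9 and 0 of 12 genes of the transport and pyruvate lists were called. The transport and pyruvate lists each had 2 genes at an unadjusted p under 0.05, against 18.3% of all genes. HIF1A, the oxygen-regulated subunit of hypoxia-inducible factor 1, rose from 224 and 346 CPM to 764 and 837 CPM (log2 fold change 1.55, SE 0.273; edgeR adjusted p = 0.0228), and was at 1.33 without the right uninjected library (edgeR adjusted p = 0.0935) and at 1.5 with free RNA subtracted (edgeR adjusted p = 0.280). ENO2, ALDOC and HIF1A all lost the call without either mScarlet library or with doublets kept, where 0.319% of all genes were called. Between the blebs 1.89% of all genes were called, 0.345% higher and 1.55% lower in the mScarlet bleb. ALDOC was called lower there, as given in the closing section. HK3, a hexokinase of myeloid blood cells, was called higher (log2 fold change 2.91, SE 0.518, edgeR adjusted p = 0.0297). HK3 was 12.3 and 5.04 CPM in the hRPGR blebs and 47.7 and 85.6 CPM in the mScarlet blebs. That call was lost without any 1 of the 4 bleb libraries (adjusted p of 0.108 to 0.308) and with free RNA subtracted (log2 fold change 2.7; adjusted p = 1.00). LDHA, HK2 and ENO1 gave no call in myeloid-like cells, with LDHA at 307 and 221 CPM in the uninjected areas and 300 and 327 CPM in the mScarlet blebs. T/NK-like cells had 416 and 474 CPM of LDHA in the mScarlet blebs, against 172 and 298 CPM in the uninjected areas (24 and 36 cells) and 353 and 325 CPM in the hRPGR blebs, a difference that was not tested.

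**Figure D4:**
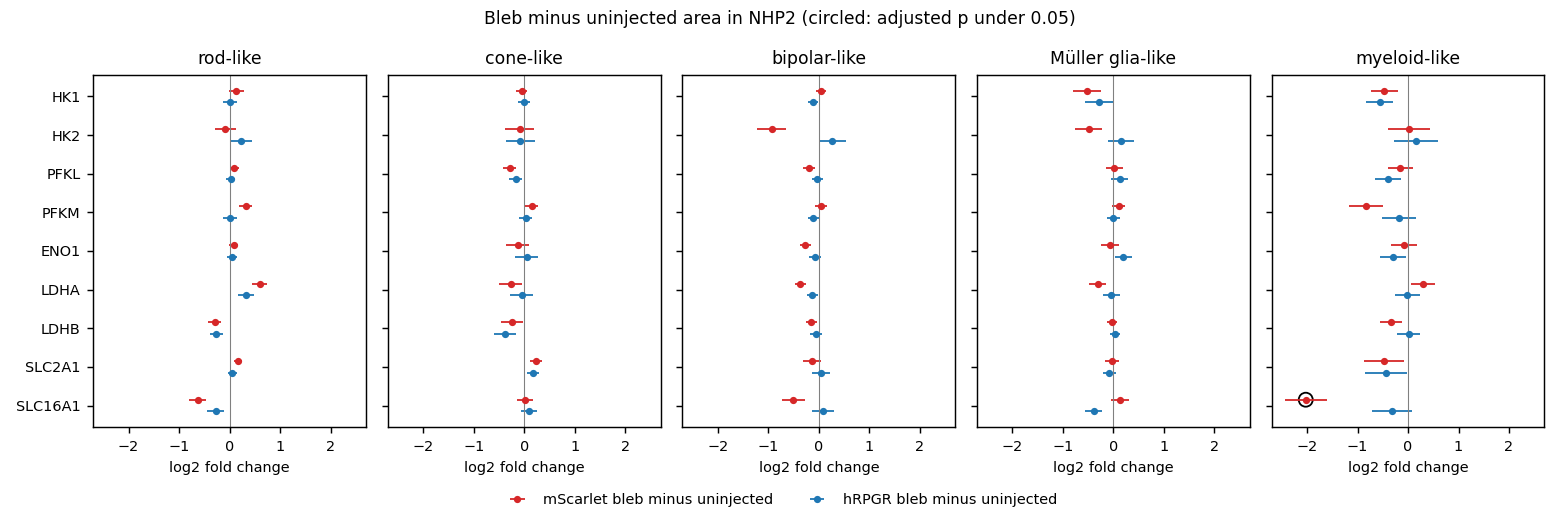
Log2 fold change of each gene, bleb minus uninjected area of NHP2, in 5 classes, with bars for the standard error; red is the mScarlet bleb and blue the hRPGR bleb. The single circled point, SLC16A1 in myeloid-like cells at -2.03, passed the adjusted threshold.

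**Figure D5:**
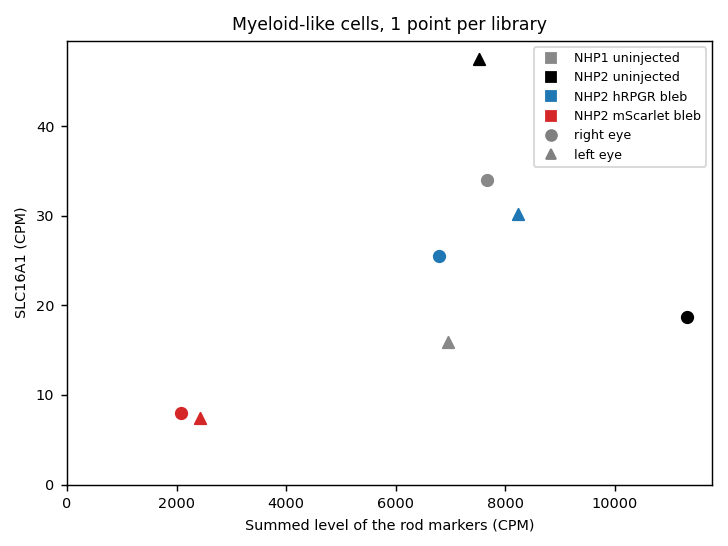
SLC16A1 against the summed level of the rod markers in myeloid-like cells, both in CPM, with 1 point per library. The mScarlet blebs sit at 2074 and 2422 CPM of rod markers and at 8.04 and 7.39 CPM of SLC16A1, lowest on both axes.

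The direct contrast of the blebs gave 0 of 9 calls by edgeR and DESeq2 in rods (0.0139% of genes called), cones (0.201%), bipolar cells (0.131%) and Müller glia (0.00771%). At an unadjusted p under 0.05 there were 0, 0, 3 and 2 of 9 genes in the same order, against 8.29%, 10%, 6.49% and 11% of all genes. The lowest p there belonged to HK2 in bipolar-like cells, at 21.7 and 14.1 CPM in the hRPGR blebs (log2 fold change -1.20, SE 0.286; edgeR adjusted p = 0.214), where 76 and 87 UMIs stood beside 61.7 and 58.4 estimated as free RNA. The other 2 in bipolar cells were SLC16A1 (-0.59, SE 0.223; edgeR adjusted p = 0.669) and LDHA (-0.24, SE 0.105; edgeR adjusted p = 0.757), and the 2 in Müller glia are given above.

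Left against right eyes of NHP2 gave 0 of 9 calls by edgeR and DESeq2 in each of the 5 classes (0% of genes called in rods, Müller glia and myeloid cells, 0.00874% in cones and 0.0463% in bipolar cells). At an unadjusted p under 0.05 were 0.986% of genes in rods, 1.73% in cones, 3.21% in bipolar cells, 3.08% in Müller glia and 2.83% in myeloid cells, among them 2 values of the set. LDHB in cones was at -0.39 (SE 0.137; edgeR adjusted p = 1.00), and at -0.25 without the right uninjected library (edgeR adjusted p = 0.998). In the cone-like cells outside the OPN1SW-led cluster, LDHB was 290 CPM in the right and 176 CPM in the left uninjected area, 173 and 175 CPM in the hRPGR blebs, and 195 and 209 CPM in the mScarlet blebs, so that the left eye was lower in 1 of 3 areas. The OPN1SW-led cluster, higher in LDHB, held 30, 16 and 33 cells of the right libraries and 30, 9 and 0 of the left ones in the same order of areas. HK2 in Müller glia was at -0.44 (SE 0.146; edgeR adjusted p = 0.999), and at -0.54 without the right uninjected library (edgeR adjusted p = 0.996). Müller glia-like cells differed in cluster by eye in the uninjected area and the hRPGR bleb, not in the mScarlet bleb, where both eyes lay in clusters 18 and 27 as given above. Clusters 17 and 26 held 673 and 455 cells of the left uninjected area against 1 and 1 of the right. HK2 over all libraries was 26.1 and 18.1 CPM there against 33.1 and 12.7 CPM in clusters 18 and 27. The counted HK2 UMIs of these Müller glia-like cells were close to or below their estimated free RNA in the blebs and in the left uninjected area. The part of cluster makeup in both values and of free RNA in the HK2 value was not tested, and treatment and side cannot be told apart.

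Rods with and without a transgene UMI, thinned to 3000 UMIs each, gave 0 of 9 genes with an unadjusted p under 0.05, against 6.06% of all genes, and 0 of 11479 genes called by edgeR. DESeq2 called 0 of 9. Status was read after thinning, so a cell counted as without a transgene UMI can have held such a UMI before it. The right hRPGR bleb had 124 cells without against 4110 with. Transgene UMIs from free RNA were not set apart. This comparison therefore does not settle whether carrying a transgene goes with a change in these genes.

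Between the uninjected areas of the 2 animals, 0 of 9 genes passed by edgeR in rods (1.21% of genes called), but 4 had an unadjusted p under 0.05, all lower in NHP2, against 14.2% of all genes in either direction and 7.68% lower. LDHB was 508 and 470 CPM in NHP1 and 328 and 312 CPM in NHP2 (log2 fold change -0.59, SE 0.144; edgeR adjusted p = 0.171), and HK1 was 297 and 307 CPM against 202 and 226 CPM (-0.47, SE 0.105; edgeR adjusted p = 0.144). Apart from cluster 2, the rod-like cells of the 2 animals lay largely in different clusters. Clusters 9 and 10 held 1900 and 83 cells of the right and 222 and 3172 cells of the left NHP1 library, and at most 10 cells each of an uninjected NHP2 library. Clusters 11 and 12 held 1523 and 1725 cells of the right and 393 and 2061 cells of the left uninjected NHP2 library, and at most 14 cells each of an NHP1 library. Cluster 2 was shared, with 1887 and 76 cells of the right and left NHP1 library. It held 1529 and 505 cells of the right and left uninjected NHP2 library. LDHB was 473 and 471 CPM in clusters 9 and 10 against 337 and 303 CPM in clusters 11 and 12, and the part of cluster makeup in the animal contrast was not tested. HK2 fell short as well in rods (-0.79, SE 0.276; edgeR adjusted p = 0.303), as did ENO1 (-0.35, SE 0.102; edgeR adjusted p = 0.234). DESeq2 called HK1, HK2 and LDHB, beside 4.73% of all genes. In bipolar-like cells (1.05% called), 2 of 9 had an unadjusted p under 0.05 against 13.4%, HK2 at -1.17 (SE 0.320, edgeR adjusted p = 0.184) and LDHA at 0.39 (SE 0.124, edgeR adjusted p = 0.249). HK2 in free RNA was 217 and 198 CPM in NHP1 and 135 and 129 CPM in the uninjected areas of NHP2. The part of free RNA in the bipolar HK2 value was not tested. Cones (1.71% called), Müller glia (0.0231%) and myeloid cells (0.271%) gave 0 calls by edgeR and DESeq2. At an unadjusted p under 0.05 there were 1 of 9, 3 of 9 and 0 of 8 tested genes there, against 14.4%, 7.65% and 9.04%. These were SLC16A1 in cones (0.36, SE 0.128, edgeR adjusted p = 0.278), and in Müller glia HK2 (-0.70, SE 0.161, edgeR adjusted p = 0.487), SLC16A1 (0.88, SE 0.320; edgeR adjusted p = 0.650) and LDHA (0.39, SE 0.143, edgeR adjusted p = 0.650). HK2 in the Müller glia of NHP1 was 106 and 196 UMIs beside 82.8 and 191 estimated as free RNA, and in the uninjected NHP2 areas 82 and 138 beside 65.6 and 138. The largest cone-like cluster was cluster 13 in NHP1 and cluster 14 in NHP2, and in the right uninjected NHP2 library the Müller glia-like cells lay mostly in clusters 18 and 27, which held 89 and 1 cells of the right and 45 and 0 of the left NHP1 library.

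Without the left NHP1 library, the rod values were -1.08 for HK2 (edgeR adjusted p = 0.0469), -0.72 for LDHB (0.0695), -0.53 for HK1 (0.126) and -0.39 for ENO1 (0.253), and in bipolar cells HK2 was at -0.68 (0.366) and LDHA at 0.42 (0.390). SLC16A1 in cones was then at 0.23 (edgeR adjusted p = 0.675), and in Müller glia HK2 was at -0.73 (0.873), SLC16A1 at 0.51 (0.9) and LDHA at 0.42 (0.9). Without the right NHP2 library the rod values were -1.05 for HK2 (edgeR adjusted p = 0.672), -0.67 for LDHB (0.832), -0.43 for HK1 (1.00) and -0.41 for ENO1 (0.976), and in bipolar cells HK2 was at -0.88 (0.736) and LDHA at 0.38 (0.786). SLC16A1 in cones was then at 0.37 (edgeR adjusted p = 0.777), and in Müller glia HK2 was at -0.81, SLC16A1 at 0.70 and LDHA at 0.49 (each with an edgeR adjusted p of 1.00). Animal, age, vector history and processing cannot be told apart in this contrast.

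Over 61 class sums of at least 50 cells, the gene most alike in level was RDH11 for SLC2A1 (Pearson r = 0.92), AKR1C1 for ENO1 (0.92), PGM1 for PFKM (0.91), ERRFI1 for SLC16A1 (0.91), MGAT1 for HK2 (0.90), PRDM2 for HK1 (0.88), ABHD10 for LDHB (0.86), DYNC1LI1 for PFKL (0.79) and MPHOSPH8 for LDHA (0.76). RDH10, like RDH11 a retinol dehydrogenase, was next for SLC2A1 (0.90), and the next were TNIP1 for ENO1 (0.91), WNK2 for PFKM (0.90), FAM107A for SLC16A1 (0.89), HIPK1 for HK2 (0.87), YPEL2 for HK1 (0.86), FAM241B for LDHB (0.86), TXNL1 for PFKL (0.79) and CDC37 for LDHA (0.76). Sums of 1 library share its depth and its free RNA, so these values are a description.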

How the data were processed

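Single-cell 5′ gene expression libraries of retina were analysed from the deposited UMI counts. Per the submitters' processing notes these counts came from Cell Ranger 8.0.1 and Mmul_10, and the features include transgenes. Total UMIs were 90634306 to 146519011 per library. Genes and lists were chosen with earlier results of these data known.

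A barcode was taken as a cell from 1500 UMIs and 300 genes up, with mitochondrial UMIs of 20% or less, and barcodes with 100 to 1000 UMIs gave the free RNA. The 8604 cells with the highest doublet scores (9.37%), at an expected rate set by cell number, were left out; the automatic threshold marked 0% to 4.62% per library. The remaining 83192 cells were clustered with scanpy 1.11.5 without the described genes and lists. The libraries were pooled without integration, so clusters can follow library, area or animal as well as cell type. Of 60 clusters, 39 were named, from at least 3 raised markers, a score 2 times the next, a marker of the class among the 10 leading genes and no more of another class, at most 30% doublets and no haemoglobin gene among the first 3. The 6 clusters counted as unnamed with rod markers stayed unnamed by the rule on leading genes (3 clusters) or on haemoglobin (3 clusters). Other unnamed clusters that scored highest for rods failed the rule on scores or on doublets and are not among these 6. Examples are cluster 29 (2808 cells) and cluster 32 (108 cells). These naming rules were set after the clusters were seen. Cell barcodes shared between libraries were 1.39 to 2.16% of the smaller library.

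UMIs were summed per class and library and tested with edgeR 4.0.16 (filterByExpr, TMM, quasi-likelihood test, R 4.3.3) over all genes, with Benjamini-Hochberg adjustment and a threshold of 0.05. Standard errors were taken from the fold change and its F statistic. The 6 NHP2 libraries shared 1 fit per class, so contrasts against the uninjected area share those libraries. DESeq2 1.42.0 was the alternative tool, and the others are described in the closing section. The fits were also run on simulated data, with changes larger than most given here and only in well-counted genes. That check does not bear on small changes or low counts. Right and left eye pair the areas of NHP2 by label; the correlation of left-minus-right differences between areas was -0.356 to 0.219 in rod-like cells.

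All genes of the set were named. A fold change was given where a gene had an unadjusted or adjusted p under 0.05, list genes were named when they passed (at most 5) or by highest level, and likeness was Pearson's r of log2(CPM + 1) in genes with a mean of at least 10 CPM.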

Additional observations from a re-analysis of the deposited data

Results flagged for a closer look

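The effect of the mScarlet bleb on 2 genes differed between cell classes by a test of the difference itself. SLC16A1 changed in cone-like cells by 0.67 more, on the log2 scale, than in rod-like cells (edgeR adjusted p = 0.0416). Levels in rods were lower in both mScarlet libraries than in the uninjected ones, and over all cone-like cells they were higher in both. Outside the OPN1SW-led cluster, which the left mScarlet bleb lacked, the right and left mScarlet blebs had 196 and 177.5 CPM. The right and left uninjected areas had 176 and 177.6 CPM there. LDHA changed in bipolar-like cells by -0.99 relative to rod-like cells (edgeR adjusted p = 0.0353), being higher in rods and lower in bipolar cells in both mScarlet libraries. Both calls rest on 2 libraries against 2 in the same pair of eyes. Neither holds without the right mScarlet library (edgeR adjusted p = 0.140 for SLC16A1 and 0.181 for LDHA) or the left one (0.331 and 0.370). SLC16A1 also lost its call without the right uninjected library (0.123), and LDHA without the left one (0.134). Summed rod markers in bipolar-like cells were 1873 and 2075 CPM in the mScarlet blebs against 2689 to 4428 CPM in the other NHP2 libraries, and their part in the LDHA value was not tested. Rod-like cells lay in different clusters by area, as given above, and the part of this makeup in both calls was not tested.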

How the results depend on the processing

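The count of the 9 genes past the adjusted threshold was taken again under each alternative run for a contrast. No count or fold change of these genes reversed, and the cause of a changed count was not tested unless named. The effects relative to rods, which hold both flagged calls, were refitted only with other scaling, with DESeq2 and with 1 library left out. They were not refitted with free RNA subtracted, doublets kept, other cell filters or the unnamed rod-marker clusters counted as rods. In rods, mScarlet bleb minus uninjected area, 0 became 2 with DESeq2 and 2 with no filter on low counts, where the share of all genes called rose from 1.94% to 10.5% and 7.05%, and 0 to 1 when 1 library was left out. In bipolar cells 0 became 1 with free RNA subtracted (0.593% of genes called) and 1 with no filter (2.89%), and for mScarlet minus hRPGR bleb 1 with no filter (1.65%). In myeloid cells 1 became 0 with at least 3000 UMIs per cell, with doublets kept or with free RNA subtracted, in both mScarlet contrasts (against the uninjected area 1.97%, 0.319% and 0% of genes were called), and 0 to 1 with 1 library left out. Of the effects relative to rods, the mScarlet effect went from 1 to 2 with DESeq2 in cones (2.55% of genes called; 0 to 2 with 1 library left out), from 0 to 1 with DESeq2 in Müller glia (1.47%), and from 1 to 0 to 1 with 1 library left out in bipolar cells; the hRPGR effect in cones, 0, gave 0 to 1. For NHP2 minus NHP1, 0 became 3 in rods with DESeq2 (4.73%) and 1 in bipolar cells with no filter (4.38%), and both gave 0 to 1 with 1 library left out. ALDOC in myeloid cells between the blebs, called at -1.27, was at 3.13 with free RNA subtracted (edgeR adjusted p = 1.00).

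With the eye as a replicate block, the NHP2 minus NHP1 count became 4 in rods and 1 in bipolar cells, where the share of all genes called rose to 11.2% and 7.32%; these eyes belong to different animals and share only a side. Between the areas of NHP2 the block changed no count of the 9 genes in the 5 classes, but for mScarlet minus uninjected area it took the calls over all genes from 279 to 6 in rods and from 39 to 4 in Müller glia, and the PDK1 and EGLN1 calls with them. CPM over all features, an alternative chosen after seeing the data, moved 13 of 45 mean levels by more than 1 SD and subtracting free RNA moved 11 of 45.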
